A study of Mus musculus with 18 samples.

Results

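The genes described are Tlr4, Ly96, Cd14, Myd88, Tirap, Irak1, Irak2, Irak3, Irak4 and Traf6, which encode the TLR4 receptor complex and the MyD88 pathway that it starts. They were chosen by name and matched by mouse Ensembl number, and the deposited files gave a value for 13598 genes in all. Of the 10 members, 9 had a value and 8 passed the filter on low values, because Irak1 had no rows under its own number and Cd14 was listed on its own strand in 1 library. RNA-seq was done on thioglycolate-elicited peritoneal macrophages, a bulk preparation, of C57BL/6 mice. TLR4-WT mice carried the unchanged receptor, and TLR4-K730R and TLR4-K810R were CRISPR/Cas9 knock-in mice in which the lysine at that position of the TLR4-TIR domain was replaced by arginine. Each genotype was studied mock-treated and after 6 h with LPS at 100 ng/ml, which makes 6 groups, and each group has 3 libraries. The labels do not give age or sex, nor do they say whether the 3 libraries of a group came from separate mice, so p-values may measure technical spread only.

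LPS, the endotoxin of Gram-negative bacteria, is handed by CD14 to MD-2, the product of Ly96, which sits on the outer part of TLR4 and pairs the receptor. The TIR domains inside the cell then recruit MAL (Tirap), which brings in MyD88, and MyD88 gathers the kinases IRAK4, IRAK1 and IRAK2 into one assembly. The ubiquitin ligase TRAF6 passes the signal on to TAK1, the IKK complex and NF-κB, and IRAK-M (Irak3) restrains it. In macrophages this pathway drives the early inflammatory genes and is also known for the tolerance that follows a first exposure to LPS.

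The 2 codons altered in the knock-in mice are shown because they define the genotypes. Both lie in coding sequence of exon 3 of Tlr4-201 on the plus strand of GRCm38, at chr4:66841144-66841176 and chr4:66841384-66841416 (GENCODE vM21). The sequence is the reference one, 5′ to 3′, and capitals mark the lysine codon.
Codon 730: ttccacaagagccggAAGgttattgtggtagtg
Codon 810: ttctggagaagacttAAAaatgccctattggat
The deposited values hold no bases, so the substitutions themselves were not checked here.

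The authors deposited FPKM values, fragments scaled to transcript length and library size, for transcript events such as first exons, last exons and skipped exons. The level of a gene in a library was the larger of its summed first-exon FPKM and its summed last-exon FPKM. For Tlr4, Irak2 and Irak3 it rested on first exons, for Ly96 and Myd88 on last exons, and for Tirap, Irak4 and Traf6 both ends were listed. Read counts are not among the values, so depth is unknown and counting error could not be given. Tests used limma on log2(FPKM + 1) over 9707 genes, a scale that understates the change of low genes, and a gene was called at an adjusted p below 0.01. The macrophage markers were present, with Lyz2 at 5944 to 13290 FPKM, Csf1r at 277 to 538 and Adgre1 at 148 to 271, and 7 of 8 listed markers reached 1 FPKM in 3 libraries. The exception, Itgam, had no row. The macrophage list summed to 11680 to 14940 FPKM in mock-treated and 7430 to 10140 in LPS-treated libraries, without overlap. Most of that sum is Lyz2, so it does not show the other markers. Over all libraries Cd68 ran from 387 to 771 FPKM, Fcgr1 from 26.7 to 412, Marco from 29.6 to 165 and Mertk from 5.03 to 32.15. The summed level of 5 neutrophil markers was 58.7 to 82.6 FPKM in mock-treated and 204 to 281 in LPS-treated libraries. Within that list S100a8 ran from 22.1 to 239 FPKM and Csf3r from 26.1 to 67.4, while S100a9, Ly6g and Cxcr2 reached at most 2.23, 0.644 and 0.132. The part of either list in the differences after LPS was not tested. The B cell, T cell, mast cell, eosinophil and dendritic cell lists summed to at most 3.80 FPKM each, but 3 of 4 eosinophil and 2 of 4 dendritic cell markers had no row. In bulk RNA, fewer cells of a type and less RNA per cell cannot be told apart.

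After LPS the components of the pathway differed in direction. In all 3 genotypes Tlr4 fell, Myd88, Irak2 and Irak3 rose, and Tirap, Ly96 and Traf6 did not pass the test. Irak3 moved furthest, between 2.40 and 2.73 on the log2 scale. Of the 8 members tested, 3 were called higher and 1 lower in TLR4-WT, beside 34.3% of all genes called (10.4% higher, 23.9% lower). In TLR4-K730R 3 were higher and 2 lower, beside 35.8% of all genes (9.32% and 26.5%). For TLR4-K810R 3 were higher and 1 lower, beside 28.8% (9.08% and 19.7%). The members' median difference was 0.55, 0.32 and 0.24 in TLR4-WT, TLR4-K730R and TLR4-K810R, against -0.28, -0.36 and -0.26 over all genes tested. Scaling the libraries by median of ratios moved those 3 medians of all genes to -0.01, -0.04 and -0.03, and then 5, 5 and 4 members were called higher and 1 lower in each. The same scaling moved the genes called in TLR4-WT from 1012 higher and 2316 lower to 1494 and 1368, in TLR4-K730R from 905 and 2568 to 1496 and 1299, and in TLR4-K810R from 881 and 1916 to 1196 and 1125. The libraries did not overlap for 6, 7 and 6 of the 8 members, where the shares over all genes were 55%, 58.8% and 52.5%.

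**Figure D1:**
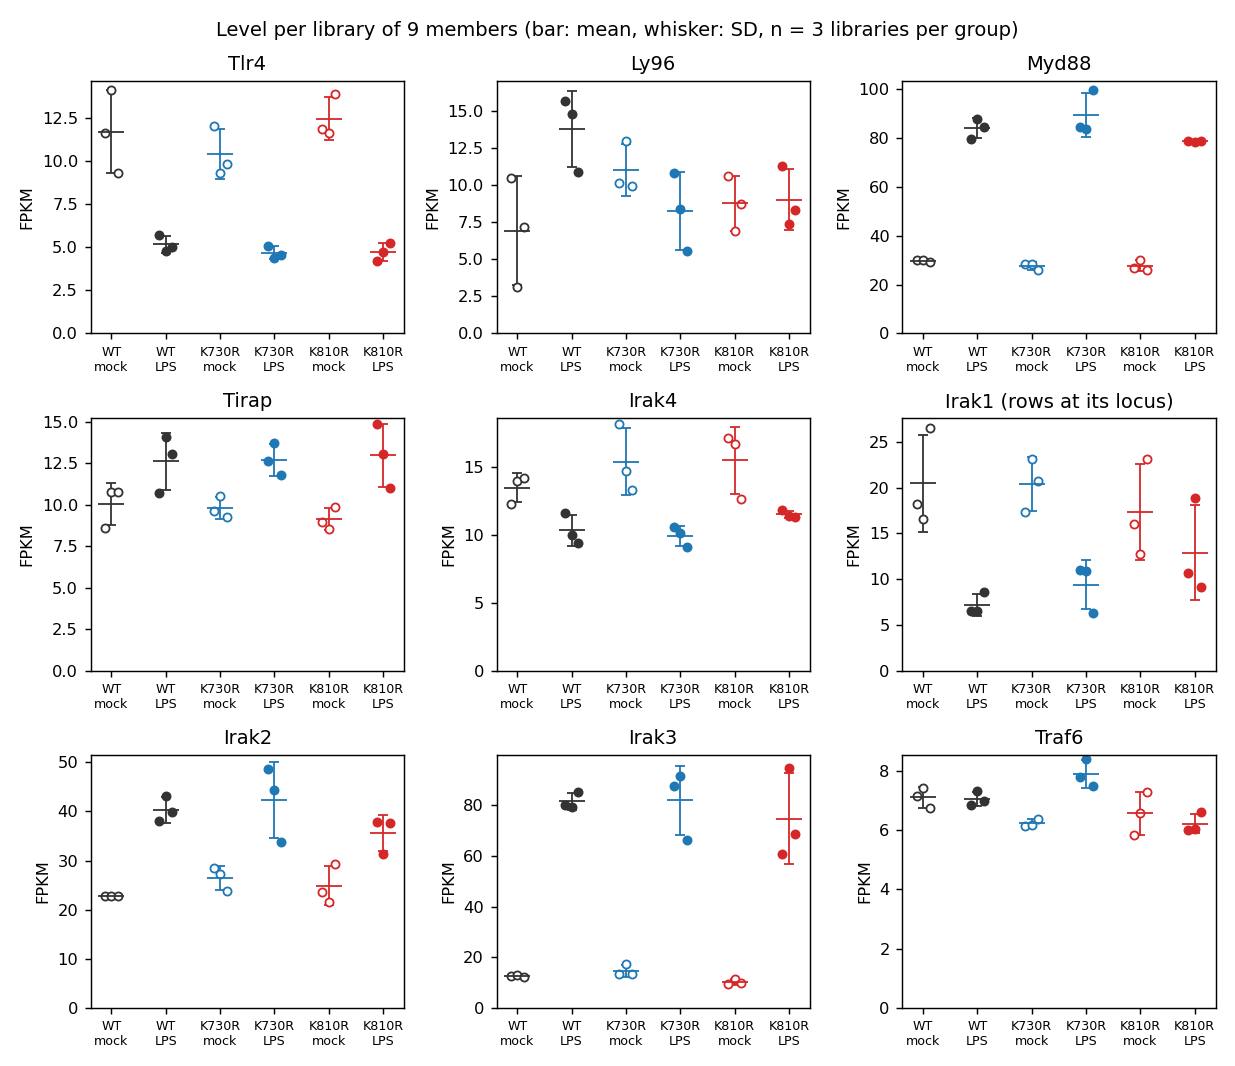
FPKM of 9 members in each of the 18 libraries, 1 panel per gene, with open points for mock-treated and filled points for LPS-treated libraries. Horizontal bars are group means and whiskers the SD (n = 3). All LPS-treated points of Tlr4 lie at or below 5.72 FPKM and all mock-treated points at or above 9.31, and the panels of Myd88 and Irak3 show the opposite order. Irak1 is drawn from rows at its locus.

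Tlr4 (ENSMUSG00000039005; chr4:66827584-66930284, plus strand) encodes the receptor itself. In mock-treated macrophages it stood at 11.6, 14.2 and 9.33 FPKM in TLR4-WT, at 12.1, 9.31 and 9.86 in TLR4-K730R, and at 11.9, 11.7 and 13.9 in TLR4-K810R. After LPS it stood at 5.72, 4.76 and 5.01 FPKM in TLR4-WT, at 5.10, 4.38 and 4.57 in TLR4-K730R, and at 4.18, 4.74 and 5.28 in TLR4-K810R. The lowest mock-treated library was above the highest LPS-treated one, and within each treatment the 3 genotypes overlapped. Tlr4 fell by 1.03 on the log2 scale in TLR4-WT (SE 0.145, limma adjusted p = 2.71e-05), by 0.999 in TLR4-K730R (3.50e-05) and by 1.23 in TLR4-K810R (4.74e-06). Among all differences Tlr4 had the percentiles 12.6, 14.9 and 7.11 in the 3 genotypes. With median-of-ratios scaling the fall was smaller, -0.74, -0.64 and -0.98, and still called.

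Ly96 (ENSMUSG00000025779; chr1:16688051-16709611, plus strand) encodes MD-2, the subunit that binds LPS. Mock-treated TLR4-WT libraries held 10.5, 3.14 and 7.16 FPKM and LPS-treated ones 15.7, 14.8 and 10.8. In TLR4-K730R the values were 10.1, 12.99 and 9.92 FPKM without and 10.8, 8.36 and 5.54 with LPS, and in TLR4-K810R they were 10.6, 6.91 and 8.75 without and 11.3, 7.34 and 8.34 with it. Only in TLR4-WT did the treatments separate, and its mock-treated libraries spread the most, over a range of 3.14 to 10.5 FPKM. The difference after LPS was 1.003 in TLR4-WT (SE 0.307, 95% interval 0.35 to 1.66, limma adjusted p = 0.0140), -0.41 in TLR4-K730R (-1.06 to 0.24, 0.285) and 0.03 in TLR4-K810R (-0.62 to 0.69, 0.949). None was called. The TLR4-WT difference passed the threshold without mock replicate 1 (1.33, adjusted p = 0.00241), under median-of-ratios scaling (1.30, 0.00302) and with the replicate number as a block (0.00753). Leaving out 1 library moved it over 0.59 to 1.33 with an adjusted p of up to 0.0807, and the lowest value came without the mock-treated replicate 2 at 3.14 FPKM. In TLR4-K730R the value ran from -0.61 to -0.18 with 1 library left out, the latter without LPS-treated replicate 3. Median-of-ratios scaling gave -0.04 there and 0.28 in TLR4-K810R (limma adjusted p = 0.934 and 0.537).

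The mean ratio of Ly96 to Tlr4, both in FPKM and so per length, was higher with LPS in each genotype. It was 0.63 ± 0.36 (SD, n = 3) without and 2.67 ± 0.475 with LPS in TLR4-WT. For TLR4-K730R it was 1.08 ± 0.286 without and 1.75 ± 0.476 with LPS, and for TLR4-K810R 0.706 ± 0.166 without and 1.94 ± 0.656 with it. The libraries of the treatments did not overlap within TLR4-WT and TLR4-K810R, whereas in TLR4-K730R the lowest LPS-treated ratio, 1.21, was below the highest mock-treated one, 1.40.

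Cd14 (ENSMUSG00000051439, chromosome 18, minus strand) encodes the co-receptor that delivers LPS to MD-2. On its own strand its last exon was listed at 463 FPKM in 1 LPS-treated TLR4-K810R library and not listed in the other 17. A missing line is not a measured absence, since Myd88, at 25.9 FPKM or more, had no first exon listed. Events at 1.58 FPKM in 1 LPS-treated TLR4-WT library lay on the opposite strand and were dropped, so no level per group is given and it was not tested.

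Myd88 (ENSMUSG00000032508; chr9:119335934-119341411, minus strand) encodes the adaptor that links the TIR domains to the IRAK kinases. In TLR4-WT it stood at 30.1, 30.1 and 29.2 FPKM without LPS and at 79.6, 87.7 and 84.5 with it. In TLR4-K730R it stood at 28.6, 28.5 and 25.9 FPKM without LPS and 84.7, 83.7 and 99.7 with it, and in TLR4-K810R at 26.9, 30.2 and 26.1 without and 78.9, 78.3 and 78.7 with it. Every LPS-treated library was above every mock-treated one, and the 9 mock-treated libraries lay within 25.9 to 30.2 FPKM. Myd88 rose by 1.46 in TLR4-WT (SE 0.0929, limma adjusted p = 3.67e-09), by 1.65 in TLR4-K730R (8.14e-10) and by 1.47 in TLR4-K810R (3.30e-09). It ranked at the percentiles 94.96, 95.8 and 95.7 of all differences.

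Tirap (ENSMUSG00000032041; chr9:35184551-35200291, minus strand) encodes MAL, which bridges TLR4 and MyD88. Its values were 8.61, 10.8 and 10.8 FPKM without and 10.7, 14.1 and 13.1 with LPS in TLR4-WT. They were 9.64, 10.5 and 9.24 without and 12.6, 13.7 and 11.8 with LPS in TLR4-K730R, and 8.98, 8.55 and 9.88 without and 14.9, 13.1 and 11.03 with it in TLR4-K810R. LPS-treated libraries were higher without overlap in both mutants and overlapped narrowly in TLR4-WT. The differences of 0.30, 0.35 and 0.46 were not called (limma adjusted p = 0.0737, 0.0406 and 0.0113). Under median-of-ratios scaling they were 0.60, 0.72 and 0.70 and all called. In TLR4-K810R Tirap also passed without the LPS-treated replicate 3 of that group (adjusted p = 0.00589), without the LPS-treated TLR4-WT replicate 1 (0.00895) and among genes with a mean of at least 5 FPKM (0.00798).

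The IRAK kinases split. Irak3 and Irak2 rose, Irak4 was called lower in TLR4-K730R but not with median-of-ratios scaling, and Irak1 could be read by position only. Irak3 (ENSMUSG00000020227; chr10:120141648-120202130, minus strand) encodes IRAK-M, which lacks effective kinase activity and dampens signalling. In TLR4-WT it stood at 12.7, 12.99 and 12.02 FPKM without LPS and at 80.1, 79.2 and 85.5 with it. In TLR4-K730R it stood at 13.3, 17.4 and 13.3 without and 87.8, 91.7 and 66.5 with LPS, and in TLR4-K810R at 9.27, 11.6 and 9.89 without and 60.6, 94.9 and 68.7 with it. The treatments were far apart, with 17.4 FPKM the highest mock-treated and 60.6 the lowest LPS-treated value. Irak3 rose by 2.61 in TLR4-WT (SE 0.162, limma adjusted p = 2.76e-09), 2.40 in TLR4-K730R (6.35e-09) and 2.73 in TLR4-K810R (1.56e-09), all above the 97th percentile of differences (98.2, 97.7 and 98.4).

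Irak2 (ENSMUSG00000060477; chr6:113638467-113695026, plus strand) encodes a kinase of the MyD88 assembly that sustains late signalling. In TLR4-WT it stood at 22.9, 22.8 and 22.9 FPKM without LPS and at 38.0, 43.2 and 39.8 with it. In TLR4-K730R it stood at 28.5, 27.2 and 23.7 without and 48.7, 44.4 and 33.9 with LPS, and in TLR4-K810R at 23.6, 21.6 and 29.3 without and 37.8, 31.3 and 37.7 with it. All 9 LPS-treated libraries were above all 9 mock-treated ones. Irak2 rose by 0.79 in TLR4-WT (SE 0.140, limma adjusted p = 0.000233), by 0.65 in TLR4-K730R (0.00130) and by 0.51 in TLR4-K810R (0.00864). The TLR4-K810R call was near the threshold: leaving out 1 of the 18 libraries at a time ended it in 13 cases (adjusted p up to 0.0445), and also with the replicate block (0.0148), without the intensity trend (0.0118) and when only both TLR4-K810R groups were fitted (0.0325). Fitting only the groups compared lost the TLR4-K730R call as well (0.0157). Median-of-ratios scaling gave larger values, 1.11, 1.05 and 0.77 in the 3 genotypes (limma adjusted p = 3.22e-06, 6.10e-06 and 0.000170).

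Irak4 (ENSMUSG00000059883; chr15:94543643-94581815, plus strand) encodes the first kinase to join MyD88. Its values were 12.3, 13.99 and 14.2 FPKM without and 11.6, 10.03 and 9.41 with LPS in TLR4-WT. They were 18.2, 14.7 and 13.3 without and 10.6, 10.1 and 9.12 with LPS in TLR4-K730R, and 17.1, 16.7 and 12.7 without and 11.8, 11.4 and 11.3 with it in TLR4-K810R. LPS-treated libraries were the lower ones in every genotype, without overlap. Irak4 fell by 0.58 in TLR4-K730R (SE 0.134, limma adjusted p = 0.00221), and the values of -0.36 in TLR4-WT (0.0400) and -0.39 in TLR4-K810R (0.0308) were not called. Among all differences these had the percentiles 35.0, 44.9 and 40.4, in that order, and median-of-ratios scaling left -0.05, -0.20 and -0.13 in TLR4-WT, TLR4-K730R and TLR4-K810R (limma adjusted p = 0.808, 0.306 and 0.534). The TLR4-K730R call was also lost without mock-treated replicate 1 (0.0160) or LPS-treated replicate 3 (0.0113) of that genotype and when only its groups were fitted (0.0159). In TLR4-K810R a call was gained without mock-treated replicate 3 (-0.52, 0.00744) and with library weights (0.00858).

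Taking Irak3 over Irak4, both in FPKM, TLR4-WT had a mean ratio of 0.935 ± 0.0925 (SD, n = 3) without and 7.96 ± 1.11 with LPS. For TLR4-K730R the means were 0.970 ± 0.225 without and 8.22 ± 0.889 with LPS, and for TLR4-K810R 0.671 ± 0.121 without and 6.50 ± 1.65 with it. Per length, Irak3 was thus between 0.541 and 1.18 times as high as Irak4 in mock-treated libraries and between 5.12 and 9.09 times as high in LPS-treated ones.

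Irak1 (ENSMUSG00000031392; chrX:74013914-74023918, minus strand) encodes the kinase that IRAK4 activates. No row carried its number, and the 841 rows on its strand and within its span carried that of Mir718, a microRNA gene inside it. Read by position, an analysis added after the data were seen, TLR4-WT libraries held 18.2, 16.6 and 26.6 FPKM without LPS and 6.55, 6.50 and 8.62 with it. TLR4-K730R held 17.3, 23.2 and 20.8 without and 10.96, 10.95 and 6.34 with LPS, and TLR4-K810R held 16.1, 12.8 and 23.1 without and 10.7, 18.9 and 9.16 with it. LPS-treated libraries were lower without overlap in TLR4-WT and TLR4-K730R, and overlapped the mock-treated ones in TLR4-K810R. These rows fell by 1.37 in TLR4-WT (SE 0.273, limma adjusted p = 0.000681) and by 1.07 in TLR4-K730R (0.00433), and differed by -0.42 in TLR4-K810R (95% interval -1.002 to 0.16, 0.234). The TLR4-K730R call was lost under median-of-ratios scaling (-0.69, 0.0433) and without mock-treated replicate 2 (0.0200) or 3 (0.0143) or LPS-treated replicate 3 (0.0282). In TLR4-K810R, where the LPS-treated replicate 2 held 18.9 FPKM, leaving out 1 library moved the difference over -0.71 to -0.20. The lowest came without that replicate (adjusted p = 0.0497), and values of -0.23 and -0.20 came without the LPS-treated and the mock-treated replicate 3. Median-of-ratios scaling gave -0.16 in that genotype.

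Traf6 (ENSMUSG00000027164; chr2:101678429-101701669, plus strand) encodes the ubiquitin ligase at the end of the assembly. It was the flattest member, with all 18 libraries between 5.85 and 8.40 FPKM, a range of 1.44 times. TLR4-WT held 7.16, 7.43 and 6.74 FPKM without and 6.86, 7.33 and 6.97 with LPS. TLR4-K730R held 6.15, 6.16 and 6.38 without and 7.80, 8.40 and 7.49 with LPS, and TLR4-K810R held 5.84, 6.57 and 7.30 without and 6.02, 6.04 and 6.60 with it. The treatments separated in TLR4-K730R and overlapped in the other genotypes. The differences were -0.01 (95% interval -0.22 to 0.20, limma adjusted p = 0.951), 0.30 (0.09 to 0.51, 0.0212) and -0.06 (-0.28 to 0.15, 0.637), none called. Median-of-ratios scaling turned the sign in TLR4-WT (0.28) and TLR4-K810R (0.17), and made the TLR4-K730R difference a called one (0.66, 4.69e-05).

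**Figure D2:**
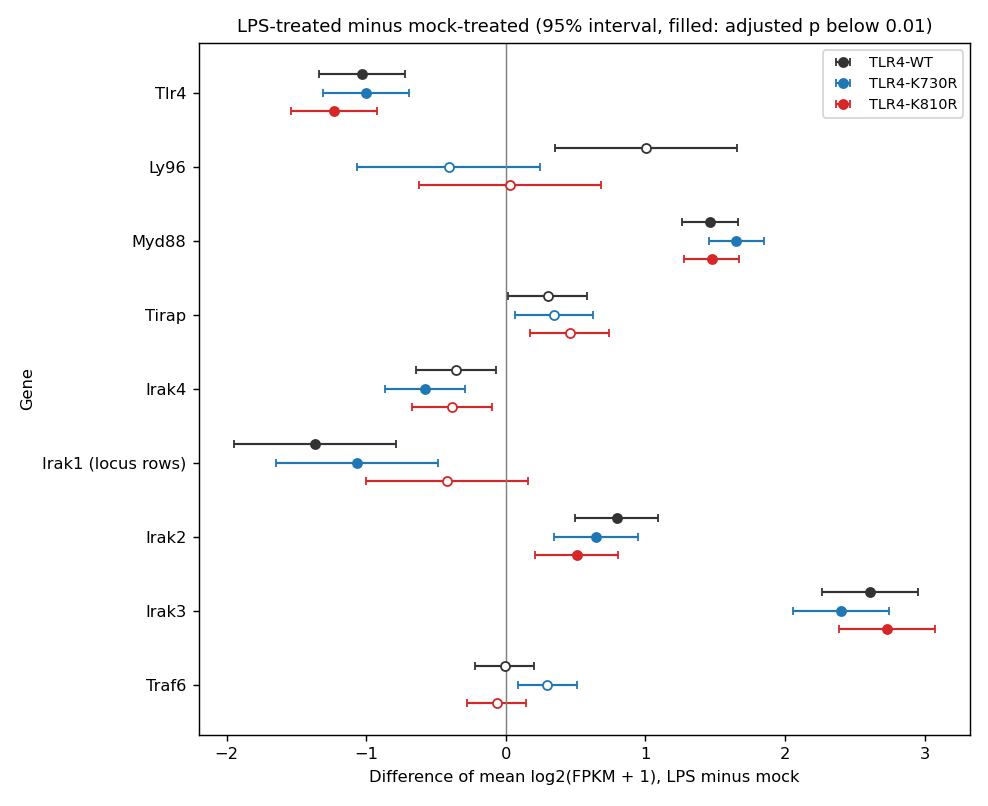
Difference of mean log2(FPKM + 1), LPS-treated minus mock-treated, for 9 members in TLR4-WT (black), TLR4-K730R (blue) and TLR4-K810R (red), with 95% limma intervals and filled points where the adjusted p was below 0.01. Irak3 lies between 2.40 and 2.73 and Tlr4 between -1.23 and -0.999 in the 3 genotypes, while the Ly96 values run from -0.41 to 1.003.

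Ordered by mean level, the 3 mock-treated groups took the top 3 places for Tlr4, Irak4 and Irak1 read by position, and the 3 LPS-treated groups took them for Myd88, Tirap, Irak2 and Irak3. For Tlr4 the order was mock-treated TLR4-K810R, TLR4-WT and TLR4-K730R, then LPS-treated TLR4-WT, TLR4-K810R and TLR4-K730R, and the only neighbours that did not overlap were those across the change of treatment. In the Ly96 and Tirap orders every group overlapped the next. Among the means over all 18 libraries, Myd88 (56.2 FPKM), Irak3 (46.0) and Irak2 (32.1) had the percentiles 93.7, 92.2 and 89.03 among the 13598 genes. The receptor and the remaining components were less abundant, with Irak4 at 12.7 FPKM, Tirap at 11.2, Ly96 at 9.62, Tlr4 at 8.19 and Traf6 at 6.85. These means pool both treatments. Without LPS, Irak3 had means of 12.6, 14.7 and 10.2 FPKM in TLR4-WT, TLR4-K730R and TLR4-K810R, below Irak4 at 13.5, 15.4 and 15.5.

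The mutants were compared with TLR4-WT, and with each other, to ask whether the TIR substitutions alter the expression of the pathway itself. No member was called in any of the 9 comparisons of genotypes. Over all genes, 0.268% were called for TLR4-K730R against TLR4-WT without LPS and 0% with it (limma, where 7.69% had an unadjusted p below 0.05). For TLR4-K810R against TLR4-WT the shares were 1.58% without and 0.134% with LPS. For TLR4-K810R against TLR4-K730R they were 0.0824% and 0.0618%, and for the differences between LPS responses 0.0412%, 0.124% and 0.0103%. Tlr4 differed from TLR4-WT by -0.15 in mock-treated TLR4-K730R (95% interval -0.45 to 0.16) and by 0.10 in TLR4-K810R (-0.21 to 0.41). With LPS the differences were -0.12 (-0.43 to 0.19) and -0.11 (-0.42 to 0.20). These comparisons share their TLR4-WT libraries.

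**Figure D3:**
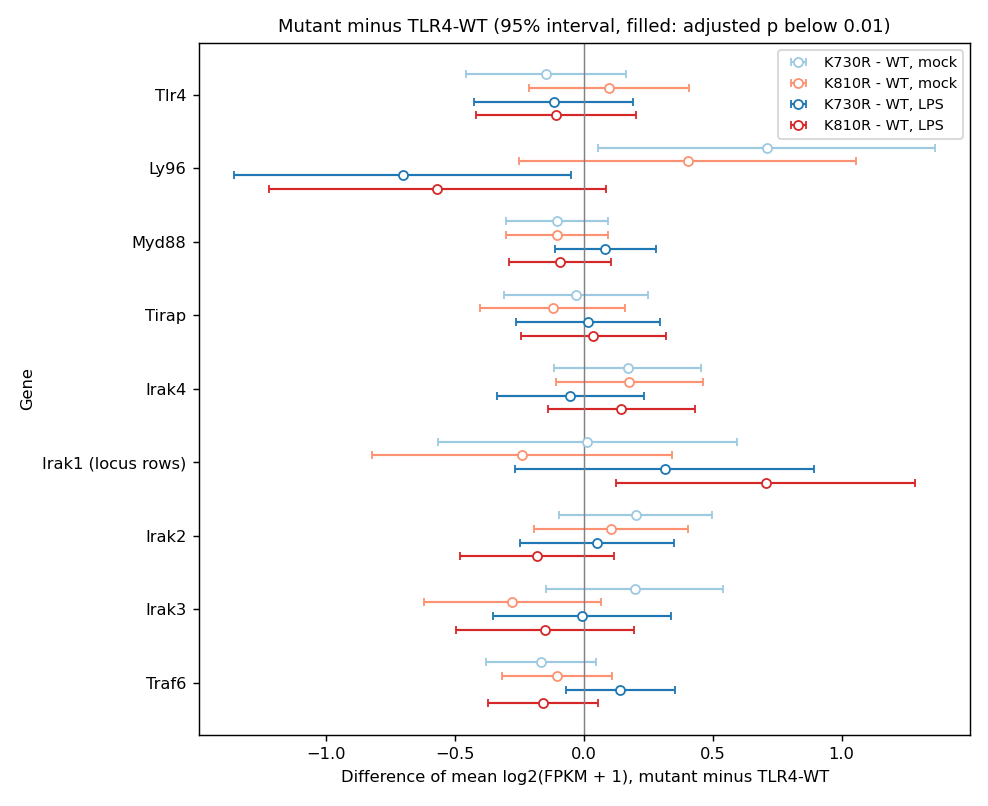
Difference of mean log2(FPKM + 1), mutant minus TLR4-WT, for 9 members without LPS (pale) and with LPS (dark) in TLR4-K730R (blue) and TLR4-K810R (red), with 95% limma intervals and filled points where the adjusted p was below 0.01. No point is filled, and the Ly96 intervals are the widest among the members listed under their own number.

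The members of the pathway that came closest were Ly96, Irak3 and Traf6, which missed the threshold after adjustment over all genes. At an unadjusted p below 0.05 stood 1 member in TLR4-K730R against TLR4-WT without LPS and 1 with it, beside 7.7% and 7.69% of all genes. In TLR4-K810R against TLR4-WT it was 0 and 0, beside 14.1% and 21.8%, and in TLR4-K810R against TLR4-K730R 1 and 1, beside 10.4% and 18.8%. For the responses it was 2, 1 and 1, beside 7.02%, 13.2% and 8.63%. Ly96 in TLR4-K730R against TLR4-WT differed by 0.71 without LPS (95% interval 0.06 to 1.36, limma adjusted p = 0.585) and by -0.70 with LPS (-1.36 to -0.05, 0.643). Its LPS response differed from that of TLR4-WT by -1.41 in TLR4-K730R (-2.34 to -0.49, limma adjusted p = 0.512) and by -0.97 in TLR4-K810R (limma adjusted p = 0.352). The low mock-treated TLR4-WT replicate 2, at 3.14 FPKM, entered 3 of these 4 values, and without it the mock-treated difference was 0.30 and the TLR4-K810R response differed by -0.56. Between the mutants, TLR4-K810R minus TLR4-K730R, Irak3 differed by -0.47 without LPS (limma adjusted p = 0.253) and Traf6 by -0.30 with LPS (-0.51 to -0.09, adjusted p = 0.124). Traf6 responses differed by 0.31 for TLR4-K730R minus TLR4-WT (limma adjusted p = 0.690) and by -0.36 between the mutants (0.502). For Irak1 read by position, TLR4-K810R was 0.71 above TLR4-WT with LPS (limma adjusted p = 0.158), or 0.42 without LPS-treated TLR4-K810R replicate 2 and up to 0.90 without another library, and its LPS response differed by 0.94 (0.305).

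Libraries did not overlap for 4 of 8 members in TLR4-K730R against TLR4-WT without LPS and 2 with LPS, beside 16.4% and 10.9% of all genes. For TLR4-K810R against TLR4-WT it was 1 and 3 members, beside 20.8% and 25.3%. For TLR4-K810R against TLR4-K730R it was 1 and 3, beside 18.7% and 25.8%. Markers of other tissues differed between groups, but not by genotype alone. The summed level of 5 intestinal epithelium markers was at most 0.670 FPKM in mock-treated and 9.69 in LPS-treated TLR4-WT libraries. It was 41.6 to 67.7 and 47.7 to 55.3 in TLR4-K730R, and 51.5 to 108 and 0.127 to 19.5 in TLR4-K810R. Reg3b reached 45.7 FPKM and Lgals4 32.1, and Vil1 stayed at or below 1.76. Mesothelium and fibroblast markers summed to 52.7 to 127 FPKM in TLR4-K810R libraries, to 24.4 to 30.9 in TLR4-K730R ones and to 10.4 to 69.3 in TLR4-WT ones, and lung epithelium markers reached 33.9 in 1 LPS-treated TLR4-K810R library. The part of these cells in the differences between genotypes was not tested.

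Transcript events give a second view of the same genes. For 33 events of the members whose forms summed to at least 1 FPKM in all libraries, the log2 ratio of the forms was tested for LPS against mock, 99 tests in all. Of these 11 were called, in 6 event forms of Tlr4, Irak2 and Ly96. The first exons of Tlr4 are each the other form of the same choice, so 3 of the 11 calls repeat another with the sign turned. In each called event one form never passed 0.876 FPKM in any library. The tested ratio adds 1 FPKM to each form, so such a ratio follows the level of the gene. With 0.1 FPKM added in its place none of the 99 was called, but the differences of the 11 calls did not vanish. In TLR4-K730R and TLR4-K810R the Tlr4 first exon at 66827584 then gave -0.969 and -1.38, against -0.979 and -1.23. In TLR4-WT the Irak2 exon at chr6:113647639-113647821 gave 1.09 against 1.08, and the Ly96 last exon at 16704300 gave -2.26 against -1.34. Only the Tlr4 values in TLR4-WT and TLR4-K730R became smaller. Over all genes, 10.4%, 10.7% and 7.98% of first-exon events, 11.2%, 12.6% and 9.57% of last-exon events and 6.51%, 7.24% and 5.44% of single skipped exons were called in TLR4-WT, TLR4-K730R and TLR4-K810R. No event of a member was called between genotypes (405 tests, limma, lowest adjusted p = 0.370), beside 0.00729% of the events of all genes. Of the 63 event forms of the members, 45 matched an exon of GENCODE vM21.

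Forms of Irak3 are described in detail, although none of their ratios was called in the main fit. An exon of 141 bases at chr10:120199363-120199503, which is not in GENCODE vM21 and whose length is a multiple of 3, was listed in 6 LPS-treated libraries and in none of the 9 mock-treated ones. The form with it stood at 54.1, 54.8 and 54.5 FPKM in LPS-treated TLR4-WT, at 57.5, 62.8 and 0 in TLR4-K730R and at 0, 67.0 and 0 in TLR4-K810R. The form without it ran from 3.16 to 17.4 FPKM in mock-treated and from 24.4 to 66.5 in LPS-treated libraries. Within the LPS-treated mutants the exon was thus either listed at 57.5 FPKM or more or not listed. The log2 ratio of the forms differed by 4.74 in TLR4-WT (limma adjusted p = 0.0869), 2.60 in TLR4-K730R (0.355) and -0.0024 in TLR4-K810R (0.9995), none called. With 1 library left out the TLR4-K730R value ran from 1.37, without LPS-treated replicate 2, to 4.96 without LPS-treated replicate 3, where the exon was not listed (limma adjusted p = 0.699 and 0.0331). It was 1.47 without LPS-treated replicate 1. The TLR4-K810R value ran from -2.13 without LPS-treated replicate 2, where the exon was listed, to 1.11 without LPS-treated replicate 3. It was also above 0 without LPS-treated replicate 1, without mock-treated replicate 3 and with 0.1 FPKM added (1.01, 0.48 and 0.94), which gave 7.99 in TLR4-WT and 4.75 in TLR4-K730R.

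The end of exon 8 of Irak3 also came in 2 forms. The short form belongs to the coding transcript Irak3-201, and the long form, 52 bases longer, to Irak3-202, which GENCODE vM21 marks for nonsense-mediated decay. The sequence is shown because the extension brings a stop codon into frame 2 bases after the end of the short form. It lies at chr10:120165081-120165104 on the minus strand of GRCm38, and capitals mark the stop.
Irak3 exon 8 boundary: caacgtttccaggTAAatgacctg
The long form was at 0 to 3.41 FPKM in the 9 mock-treated libraries and at 21.0 to 28.9 in the 9 LPS-treated ones, without overlap. The short form was at 6.93 to 12.9 and at 39.9 to 68.5. Both forms were higher in every LPS-treated library than in any mock-treated one. The share of the long form was 3.52% to 5.19% without and 30.0% to 30.6% with LPS in TLR4-WT. In TLR4-K730R it was 2.71%, 0% and 25.3% without and 28.7% to 32.6% with LPS. In TLR4-K810R it was 2.22%, 1.34% and 29.6% without and 28.4% to 39.7% with LPS, so the shares overlapped there. The log2 ratio of long to short was higher by 1.86 in TLR4-WT (limma adjusted p = 0.0463), 1.55 in TLR4-K730R (0.0888) and 1.56 in TLR4-K810R (0.107), and with 0.1 FPKM added it was 2.97, 3.14 and 2.92. None of these was called at 0.01, beside 5.37%, 6.51% and 3.9% of exon-end forms over all genes. This class was added after the data were seen. The TLR4-K810R value passed without its mock-treated replicate 3 (2.30, 0.00846). A first exon upstream, that of Irak3-205, was listed in 5 libraries, and it reached 28.6 and 31.4 FPKM in 2 of 3 LPS-treated TLR4-K810R libraries and at most 6.73 elsewhere.

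**Figure D4:**
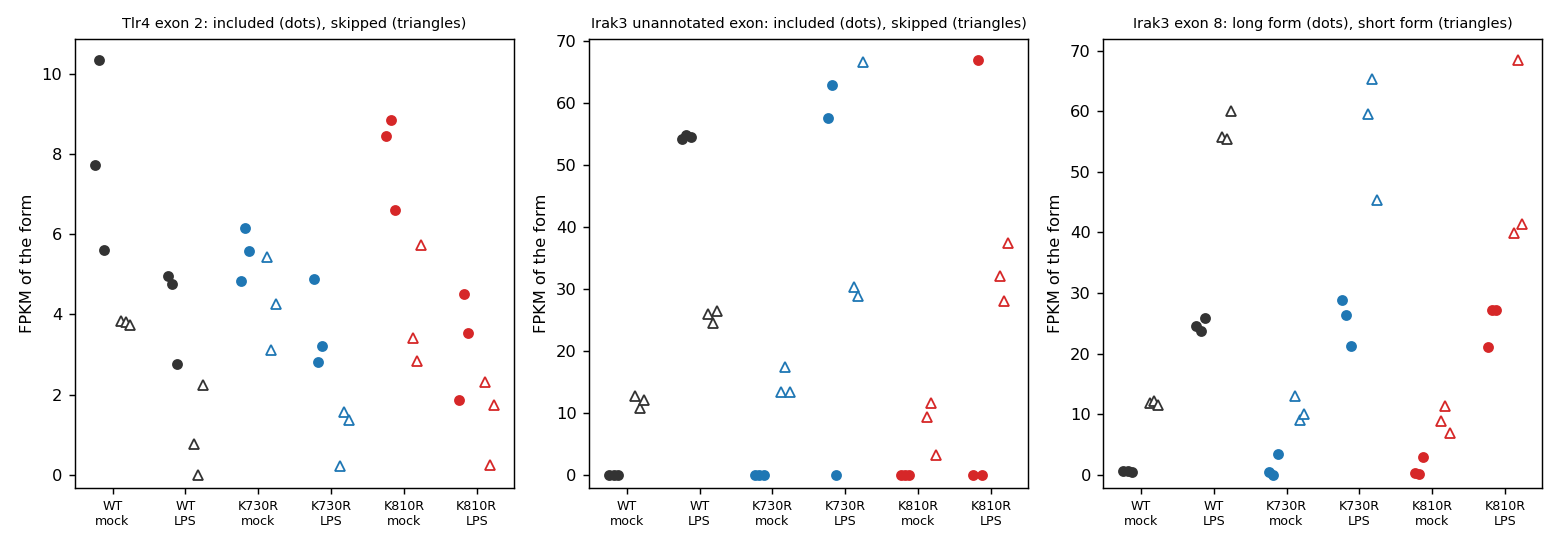
FPKM of paired transcript forms in each of the 18 libraries for Tlr4 exon 2 (left), the Irak3 exon outside the annotation (middle) and the end of Irak3 exon 8 (right), with dots for the form that includes the exon or has the long end, triangles for the other form, and colours for TLR4-WT (black), TLR4-K730R (blue) and TLR4-K810R (red). The long Irak3 form lies at or below 3.41 FPKM in mock-treated and at or above 21.0 in LPS-treated libraries, and the middle panel shows the 3 LPS-treated mutant libraries at 0.

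Tlr4 exon 2 was listed both included and skipped. It encodes part of the receptor's outer domain, at chr4:66833894-66834060 on the plus strand of GRCm38, and its 167 bases are not a multiple of 3, so its absence shifts the reading frame. The skipping junction was not compared with the annotation. The reference exon from GENCODE vM21 is printed as the stretch the skipped form lacks.
Tlr4 exon 2: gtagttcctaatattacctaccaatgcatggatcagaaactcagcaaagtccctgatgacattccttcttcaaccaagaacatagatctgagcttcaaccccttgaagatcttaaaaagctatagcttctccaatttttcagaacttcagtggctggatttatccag
With the exon, mock-treated libraries held 7.72, 10.4 and 5.60 FPKM in TLR4-WT, whereas TLR4-K730R held 4.84, 6.15 and 5.58 and TLR4-K810R 8.45, 8.84 and 6.62. Without it the same libraries held 3.84, 3.80 and 3.74 FPKM in TLR4-WT, 5.42, 3.12 and 4.27 for TLR4-K730R, and 3.41, 2.83 and 5.73 for TLR4-K810R. The form with the exon was the higher one in 8 of these 9 libraries. After LPS the including form was at 1.86 to 4.96 FPKM and the skipping form at 0 to 2.32, so that mock-treated and LPS-treated ranges overlapped narrowly with the exon and not without it. The log2 ratio of the forms differed by 0.64, 0.90 and 0.01 in the 3 genotypes, none called, and 1.82, 1.60 and 0.44 with 0.1 FPKM added in place of 1. In TLR4-WT it was 0.13 without LPS-treated replicate 2 and 1.28 without replicate 3, and in TLR4-K730R 0.38 without LPS-treated replicate 1. In TLR4-K810R it turned to -0.62 without LPS-treated replicate 2 and to -0.34 without mock-treated replicate 3.

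Among the remaining events, Myd88 with introns 2 and 3 retained never passed 1.46 FPKM, against 25.9 to 99.3 for the spliced form, and its ratio was not called (beside 23.8%, 22.2% and 14.1% of such events over all genes in the 3 genotypes). Traf6 with its second exon ran from 1.13 to 4.505 FPKM and without it from 2.26 to 5.39. In Irak2, the form without the 144-base exon at chr6:113665703-113665846 was between 0.00197 and 8.93 FPKM. The log2 ratio of the form with that exon to the form without it differed after LPS by 1.32, 2.31 and -1.47 in the 3 genotypes (limma adjusted p = 0.310, 0.0635 and 0.283), none called. With 1 library left out the TLR4-WT value ran from 0.84 without mock-treated replicate 2 to 2.10 without mock-treated replicate 3, and the TLR4-K810R value from -2.30 without LPS-treated replicate 2 to -0.87 without LPS-treated replicate 1. With 0.1 FPKM added the TLR4-K810R value was -3.73. The end of the Irak2 exon at chr6:113647639-113647821 was called in TLR4-WT, where the log2 ratio of the long to the short form was higher by 0.91 (limma adjusted p = 0.00567), beside 5.37% of exon-end forms over all genes. Its short form never passed 0.152 FPKM in any library, so with 1 FPKM added the ratio mostly reflects the long form. The share of the short form in TLR4-WT, with nothing added, was 0.606%, 0.497% and 0.579% without LPS. With LPS it was 0.408%, 0.272% and 0.306%. This ratio was not tested with 0.1 FPKM added, and the class was added after the data were seen. Ly96 used its annotated last exon in every library, and 3 further last exons outside the annotation were listed at up to 3.22 FPKM.

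Promoters of Myd88 and Irak3, the members that rose most, are printed from RefSeq (GRCm38.p6), which matched 7 of the 10 members. Each runs 5′ to 3′ on the minus strand up to the last base before an annotated exon, at chr9:119340042-119340268 and chr10:120201660-120201847. The Myd88 stretch lies inside the annotated gene, whose span on the minus strand begins at 119341411. No first exon of Myd88 was listed, so the start in use is not known. A further RefSeq promoter of Irak3, at chr10:120202081-120202380, is not printed and held no match. Capitals mark the core of the interferon-stimulated response element, GAAANNGAAA, searched on both strands.
Myd88 promoter: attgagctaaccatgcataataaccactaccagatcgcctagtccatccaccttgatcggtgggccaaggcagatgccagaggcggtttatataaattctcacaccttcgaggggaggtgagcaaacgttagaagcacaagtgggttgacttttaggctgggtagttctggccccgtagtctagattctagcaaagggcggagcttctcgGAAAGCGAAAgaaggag
Irak3 promoter: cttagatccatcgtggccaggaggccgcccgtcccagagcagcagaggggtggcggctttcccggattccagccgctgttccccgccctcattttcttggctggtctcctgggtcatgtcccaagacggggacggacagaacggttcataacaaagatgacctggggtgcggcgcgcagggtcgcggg
In the window of 300 bases, 250 before and 50 after the RefSeq start, the core was in Myd88 alone among the 7 members, 40 bases before that start, and in 3.44% of 32851 promoters. The NF-κB consensus, also searched on both strands, was in Irak1 alone and in 8.46% of promoters. A match is a run of letters and not a bound site.

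Components around the pathway were counted from 4 lists. Over all genes 10.4%, 9.32% and 9.08% rose and 23.9%, 26.5% and 19.7% fell, with medians of -0.28, -0.36 and -0.26, and nothing particular to a list is read from its counts. Of the TAK1 and IKK complexes and ubiquitin enzymes, 13 of 15 were tested, of which 2, 1 and 2 rose and 2, 2 and 2 fell in TLR4-WT, TLR4-K730R and TLR4-K810R, with medians of -0.12, -0.16 and 0.11, beside the 34.3%, 35.8% and 28.8% of all genes called. Peli1, a ubiquitin ligase for IRAK proteins, rose by 1.37 in TLR4-WT (limma adjusted p = 1.88e-08), from a mean of 8.07 to 22.5 FPKM. Map3k8, a kinase freed by IKK, rose by 0.64 in TLR4-WT (adjusted p in limma 0.00357) and was not called in the mutants, at 0.22 in TLR4-K730R and 0.08 in TLR4-K810R. Tab1 and Map3k7, the partner and the kinase of the TAK1 complex, fell by 0.69 and 0.49 in TLR4-WT (adjusted p = 0.000297 and 0.000476 in limma). Peli1, Tab1 and Map3k7 were called in the same direction in both mutants.

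Of the TRIF branch, the other arm of TLR4, 5 of 8 genes were tested, and 3, 2 and 2 rose and none fell, with medians of 1.11, 0.60 and 0.58 against -0.28, -0.36 and -0.26 over all genes, of which 34.3%, 35.8% and 28.8% were called. Tank, a scaffold of TBK1, rose by 1.56 in TLR4-WT (limma adjusted p = 1.72e-05) and Ikbke, the kinase related to TBK1, by 1.52 (7.77e-08), and both were called higher in each mutant. Beside the same shares of all genes, of the inhibitors of TLR4 signalling 9 of 12 were tested, and 3, 3 and 3 rose and 2, 2 and 1 fell, with medians of 0.49, -0.07 and -0.11. Nfkbia, which holds NF-κB in the cytoplasm, rose from a mean of 58.9 to 361 FPKM in TLR4-WT, and Tnfaip3, which edits ubiquitin chains, from 27.2 to 146. Otulin and Tollip fell there by 0.80 and 0.48, and in TLR4-K810R they stood at -0.44, called, and -0.31, not called. Of the genes of LPS handling and receptor chaperones, 5 of 8 were tested and, beside those shares, 2, 2 and 2 rose and 2, 2 and 0 fell, with medians of -0.22, -0.13 and -0.25. Aoah, which deacylates LPS, rose by 2.28 in TLR4-WT and the scavenger receptor Msr1 by 1.82, while Scarb1 and Cnpy3, a chaperone of Toll-like receptors, fell by 1.33 and 1.19. In TLR4-K730R Scarb1 and Cnpy3 fell by 1.66 and 0.82, and in TLR4-K810R they were at -0.89 and -0.30, neither called. No gene of the 4 lists was called between genotypes.

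Genes whose levels were most like those of a member were ranked by Pearson's r over the 18 libraries, which share 2 treatments, so that a common response to LPS is enough for a high r. For Tlr4 these were Kctd12b (r = 0.986), Cmtm4 (0.976) and Hsd17b11 (0.976). For Myd88 they were Cd274 (0.995), Map2k1 (0.994) and Micall2 (0.993), and for Irak3 Tarm1, Acsl1 and Clec4e (0.991, 0.991 and 0.990). Irak2 was most like Rhoq, Slc1a2 and Wnt6 (0.944, 0.942 and 0.940), Irak4 was among others like Cnot10 and Zmiz1 (0.926 and 0.922), and Tirap was most like 2500002B13Rik, Psmb8 and Psmb9 (0.914, 0.890 and 0.885). Values were lower for Ly96, with Tti2, Cdc26 and Ppp1r15a at 0.799, 0.702 and 0.685, and for Traf6, with Dennd1c, Mex3c and Csnk1g1 at 0.674, 0.664 and 0.648.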

How the data were processed

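RNA was sequenced from mock-treated and LPS-treated peritoneal macrophages of 3 genotypes, in 18 libraries grouped by the sample labels. The authors deposited FPKM for 20 types of transcript event, normalized for length and library, in 80071 to 90401 lines per library; aligner and counting program are not given in the sources used here. The processing notes name hg18, but the gene numbers are murine and 92.7% of lines overlap the named gene in GRCm38. Events outside the named gene or its strand were dropped (5.98% of FPKM), and an event without expression has no line.

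Levels were computed with Python 3.11.15, pandas 2.3.3 and numpy 2.4.6. Genes reaching 1 FPKM in 3 or more libraries entered limma 3.58.1 (R 4.3.3) on log2(FPKM + 1), as 1 fit of all 6 groups with the variance trended on intensity. Benjamini-Hochberg adjustment covered the 9707 genes and calls were made below 0.01; the scripts were tested on simulated data. Same-numbered libraries did not deviate together (r from -0.32 to 0.09). With 3 libraries per group this cannot exclude a shared origin, and the main fit did not pair them. All members are named, with the 2 largest rises and falls of each pathway list in TLR4-WT and the 3 genes most like each tested member, of which 1 is not reported here. Members and lists were chosen with earlier results of these data known. Alternatives changed the pseudocount, filter, scaling, trend, library weights, block, libraries, gene value and threshold. Irak1 by position, exon ends and events between genotypes were added after the data were seen.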

Additional observations from a re-analysis of the deposited data

Results flagged for a closer look

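On its own strand the last exon of Cd14 was listed at 463 FPKM in 1 library, the third TLR4-K810R replicate with LPS, and not listed in the other 17 libraries, mock-treated ones included. It entered no comparison.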

How the results depend on the processing

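The calls of Tlr4, Myd88 and Irak3 after LPS held in every fit that left out 1 library. Members called ranged from 4 to 5 in TLR4-WT, 4 to 5 in TLR4-K730R and 3 to 5 in TLR4-K810R in those fits, and none was called between genotypes (0). With the replicate block 5, 5 and 3 members and 9 events were called. In TLR4-K730R 3 members were called with only the groups compared in the fit and 3 with first-exon sums, and last-exon sums called 1, 2 and 1 members in the 3 genotypes, since Tlr4, Irak2 and Irak3 rest on first exons. Of the transcript events, 0 were called with a pseudocount of 0.1, 17 at an adjusted p below 0.05, and 7 to 15 with a library left out, the fewest without TLR4-WT mock replicate 1.

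Signs turned only for values that were not called, apart from Irak4 in TLR4-K730R with first-exon sums (0.094). Median-of-ratios scaling gave Traf6 0.28 in TLR4-WT and 0.17 in TLR4-K810R after LPS and Tlr4 -0.17 for TLR4-K810R against TLR4-K730R with LPS. Ly96 in TLR4-K810R was -0.046 with library weights and -0.0030 with all lines of its number. The Irak3 exon of 141 bases was 0.94 in TLR4-K810R with a pseudocount of 0.1. With a library left out, Traf6 ran from -0.043 to 0.019 in TLR4-WT and from -0.13 to 0.0040 in TLR4-K810R, and Ly96 in TLR4-K810R from -0.13 to 0.17. Tlr4 ran from -0.042 to 0.23 for TLR4-K810R against TLR4-WT without LPS, from -0.057 to 0.081 for TLR4-K810R against TLR4-K730R with LPS, and from -0.11 to 0.17 for the response of TLR4-K730R against TLR4-WT. In TLR4-K810R the Irak3 exon ran from -2.13 to 1.11, Tlr4 exon 2 from -0.62 to 0.56 and the Ly96 last exon at 16704300 from -0.17 to 0.13. The cause was not tested. Depth is unknown, so the limit it sets could not be given.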
